A study of Magallana angulata with 9 samples.

Results

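Among the genes counted in D-larvae of the Portuguese oyster, a set of 200 set a single larval pool apart from the other pools in fresh, cryoprotectant exposed and cryopreserved larvae alike. They were chosen from 18225 genes of 28372 listed, namely those counted at least 10 times in each library. For each gene and each replicate number, the gap was measured on log2 CPM (CPM is the count relative to the size of its library, here normalized by TMM and with a prior count of 2) between the nearest values of its 3 libraries and of the other 6 libraries, and the 200 genes with the largest gap were kept. These levels chose the genes, so every difference between replicate numbers below is a description without a test. The gap of a member, its score, ran from 1.44 to 4.18 log2 units with a median of 1.73.

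RNA was sequenced from 3 pools of D-larvae, each obtained by crossing 3 males with 3 females and reared in its own tank to the D-larva stage, and each pool was sampled in 3 conditions. Fresh larvae were concentrated in filtered seawater. Cryoprotectant exposed larvae spent 3 min at 4 °C with 10% dimethyl sulfoxide, 1% polyvinylpyrrolidone and 0.2 M sucrose and were then diluted in seawater. Cryopreserved larvae received the same cryoprotectants, were frozen in straws, stored for 2 months in liquid nitrogen, thawed for 10 s at 37 °C and left in seawater for 1 h. Each library holds a crowd of whole larvae, so a level is a mean over all cells of all larvae in it, and fewer cells of a type and less RNA per cell cannot be told apart. The labels give the replicate number of each library, and the same number was taken to mark the same pool. Parents, tank, spawning and larval age all go with the pool and cannot be told apart in these data.

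The D-larva is the first shelled, swimming and feeding stage of an oyster, named after the outline of its hinged valves. Oysters are broadcast spawners with high genetic polymorphism, and families of larvae can differ in growth, survival and gene expression. Because reads were aligned to the genome of the related Crassostrea gigas, a low count can stand for little RNA or for RNA whose reads did not align, which the counts alone do not separate. Genes carry NCBI gene numbers only, and 0 of the numbers occur in the gene table used here, so members are described by number, level and class and not by product, position or sequence.

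Library totals ran from 22367780 to 45990672 counts, and the 3 cryopreserved libraries were the least deep. Members were less abundant than genes in general, with a median level of 2.55 log2 CPM against 3.91 for all 18225 genes. The lowest count of a member over the 9 libraries had a median of 43, against 231 for all genes, and 62 members had a lowest count between 10 and 19. Counting error is therefore larger for members than for most genes. The cryopreserved library of replicate 3 was affected most, with 77 members under 50 counts.

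The pools were not marked equally. Of the 200 members, 132 set replicate 3 apart, 41 replicate 2 and 27 replicate 1. Most were marked by a low level, 144 against 56 with a high level. The largest class by far was the 121 members that were low in replicate 3, which made up 60.5% of the set. Among all genes, 6179 (33.9%) had a gap above 0 for some replicate number, and 24.9% of these were low in replicate 3. The other classes were 23 members high and 4 low in replicate 1, 22 high and 19 low in replicate 2, and 11 high in replicate 3.

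**Figure D1:**
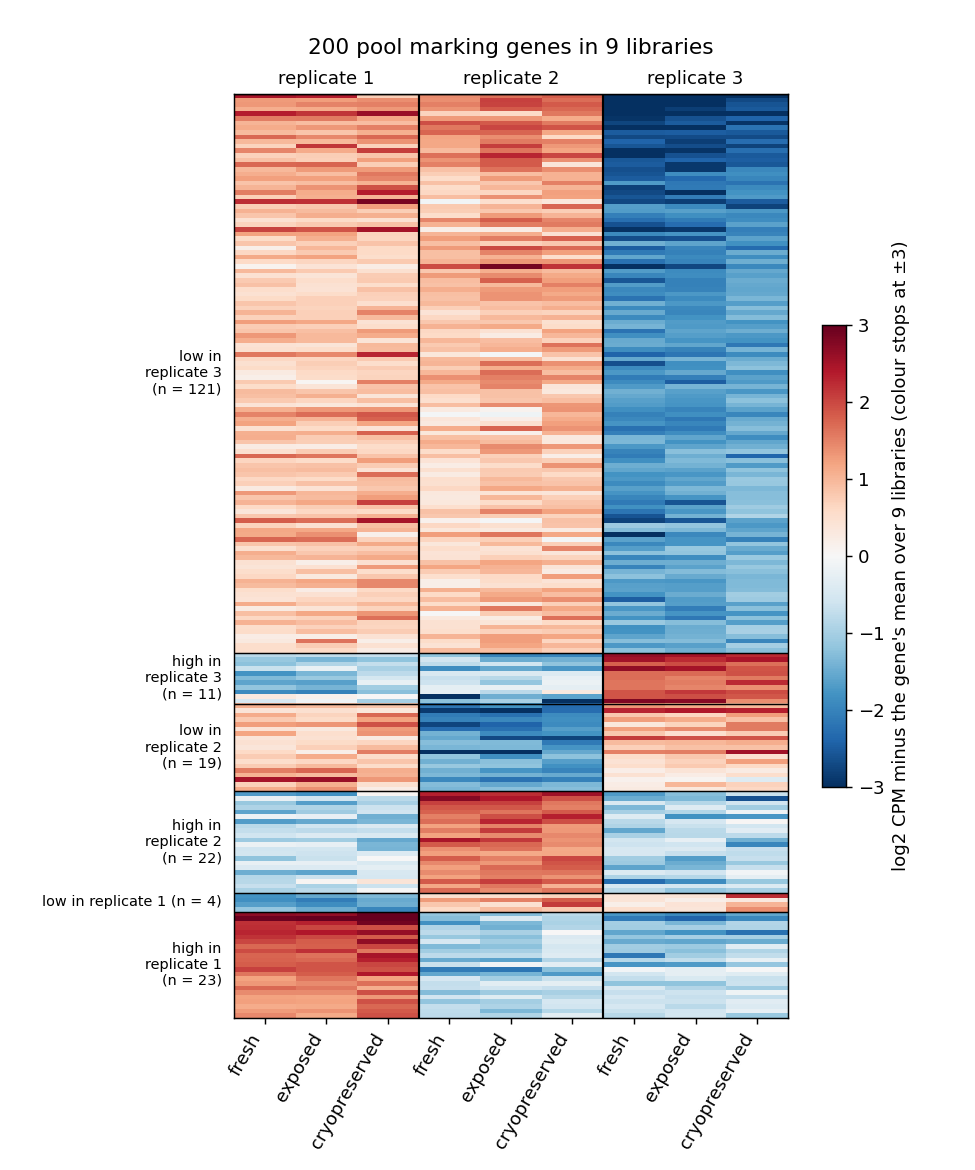
Level of the 200 members (rows, grouped by class and ordered by score within it) in the 9 libraries (columns, grouped by replicate number), as log2 CPM minus the mean of the gene over the 9 libraries, with the colour scale stopping at 3 in both directions. The 121 members low in replicate 3 form the large blue block, and within each replicate number the 3 conditions look alike.

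The difference in mean CPM between the marked pool and the other pools had a median of 6.43-fold and ran from 3.40-fold to 42.1-fold. It exceeded 4-fold in 195 members, 8-fold in 61 and 16-fold in 20. Of those 20, 16 were low in replicate 3. No member was a plain case of presence against absence, since the choice required 10 counts or more throughout.

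In the class low in replicate 3, members had a median of 1.92 CPM in the marked pool and 17.3 CPM in the other pools. What was left in replicate 3 was a median of 15.9% of the level elsewhere, with a range from 2.37% to 25.4%. Summed over the 121 genes, replicate 3 held 1926, 1868 and 2197 CPM in fresh, cryoprotectant exposed and cryopreserved larvae. The same sums were 13589, 13208 and 11610 CPM in replicate 1 and 10520, 12485 and 11572 CPM in replicate 2. The sums of replicate 3 were thus below those of every other library, as the choice of these genes requires.

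The member with the widest gap in the whole set was gene 105318706. It stood at 1.33, 1.37 and 1.42 CPM in fresh, cryoprotectant exposed and cryopreserved larvae of replicate 3, a mean of 1.37 ± 0.0453 (SD, n = 3). Replicate 1 had 88.3, 82.3 and 26.9 CPM and replicate 2 had 43.2, 50.4 and 56.2 CPM, a mean of 57.9 ± 23.5 (SD, n = 6) over both. Here n counts libraries of the same pools in 3 conditions, which are not independent replicates. Replicate 3 was 42.1-fold lower, and its 3 libraries hardly differed, while replicate 1 lost most of its level in the cryopreserved library.

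Gene 105331815 came next, with 1.70, 2.18 and 2.71 CPM in replicate 3, 43.4, 42.6 and 47.3 CPM in replicate 1 and 47.5, 74.5 and 57.7 CPM in replicate 2, in the order fresh, cryoprotectant exposed and cryopreserved. Gene 105322486 had 1.29, 1.25 and 2.54 CPM in replicate 3, against 38.6, 44.1 and 44.8 CPM in replicate 1 and 44.4, 64.0 and 56.1 CPM in replicate 2. Both were more than 20-fold lower in replicate 3 (23.8-fold and 28.7-fold), and in both the cryopreserved library of replicate 3 was the highest of its pool.

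The 11 members high in replicate 3 were led by gene 105317604, with 30.3, 27.5 and 22.8 CPM in fresh, cryoprotectant exposed and cryopreserved larvae of replicate 3. Its levels were 2.71, 2.86 and 2.96 CPM in replicate 1 and 2.06, 1.15 and 1.2 CPM in replicate 2. This amounts to a 12.5-fold difference. Gene 105343939 had 11.8, 9.62 and 11.1 CPM in replicate 3, and between 0.667 and 1.32 CPM in the other 6 libraries. For gene 105323261, which was far more abundant, replicate 3 had 391, 435 and 352 CPM, replicate 1 had 47.8, 59.6 and 67.8 CPM and replicate 2 had 66.4, 74.5 and 48.3 CPM. The last gene rested on at least 970 counts in every library, so counting error is small beside its 6.47-fold difference.

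Members high in replicate 1 had the widest gaps outside the class low in replicate 3. Gene 105330335 had 20.8, 20.02 and 29.2 CPM in fresh, cryoprotectant exposed and cryopreserved larvae of replicate 1, but 1.36, 1.24 and 1.79 CPM in replicate 2 and 0.899, 0.804 and 1.03 CPM in replicate 3. Gene 105323083 reached 155, 169.6 and 166 CPM in replicate 1, where its spread was small, against 8.30, 14.9 and 10.8 CPM in replicate 2 and 4.55, 3.74 and 5.20 CPM in replicate 3. Both were about 20-fold higher in replicate 1 (19.7-fold and 20.7-fold). Gene 105347732 had 38.7, 42.0 and 63.0 CPM in replicate 1, and its other libraries lay between 2.33 and 4.52 CPM. Summed over the 23 members of the class, replicate 1 held 573, 603 and 724 CPM, and no library of another pool held more than 87.6 CPM.

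Only 4 members were low in replicate 1, and their gaps were narrow. Gene 105331733 had 1.73, 2.1 and 2.4 CPM in fresh, cryoprotectant exposed and cryopreserved larvae of replicate 1, with 8.69, 8.76 and 9.86 CPM in replicate 2 and 8.23, 8.10 and 29.0 CPM in replicate 3. Gene 105327372 had 0.433, 0.354 and 0.554 CPM in replicate 1, 4.23, 4.94 and 6.13 CPM in replicate 2 and 2.23, 1.92 and 2.11 CPM in replicate 3. Gene 105344896 had 1.05, 0.899 and 1.2 CPM in replicate 1, 6.05, 4.76 and 14.8 CPM in replicate 2 and 3.85, 4.55 and 6.97 CPM in replicate 3. In the first of these genes and the last, a single cryopreserved library of an unmarked pool lay well above the rest.

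Among the 22 members high in replicate 2, gene 105326208 had 15.7, 14.4 and 18.03 CPM in fresh, cryoprotectant exposed and cryopreserved larvae of that pool. It had 0.902, 0.817 and 3.19 CPM in replicate 1 and 0.899, 1.22 and 1.89 CPM in replicate 3. The cryopreserved libraries of the unmarked pools were the highest of those pools, which narrowed the gap to 2.16 log2 units. Gene 105343500 had 34.1, 27.2 and 19.03 CPM in replicate 2, 4.29, 3.27 and 2.82 CPM in replicate 1 and 1.76, 1.92 and 0.774 CPM in replicate 3, so that each pool had its lowest level in cryopreserved larvae. For gene 105334556, replicate 2 had 9.74, 9.73 and 7.02 CPM, and the other 6 libraries lay between 0.681 and 1.64 CPM.

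The 19 members low in replicate 2 were led by gene 105336385, at 1.05, 1.36 and 0.946 CPM in fresh, cryoprotectant exposed and cryopreserved larvae of replicate 2. Its levels in replicates 1 and 3 lay close together, between 8.73 and 12.3 CPM. Gene 105328784 behaved alike, with 0.776, 0.697 and 0.896 CPM in replicate 2 and between 5.53 and 11.7 CPM elsewhere. Gene 105334215 was at 0.931, 0.818 and 1.44 CPM in replicate 2, but its other pools differed as well, with 9.56, 10.2 and 9.14 CPM in replicate 1 and 35.5, 38.7 and 36.8 CPM in replicate 3. The pool means of this gene thus formed 3 separate levels.

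**Figure D2:**
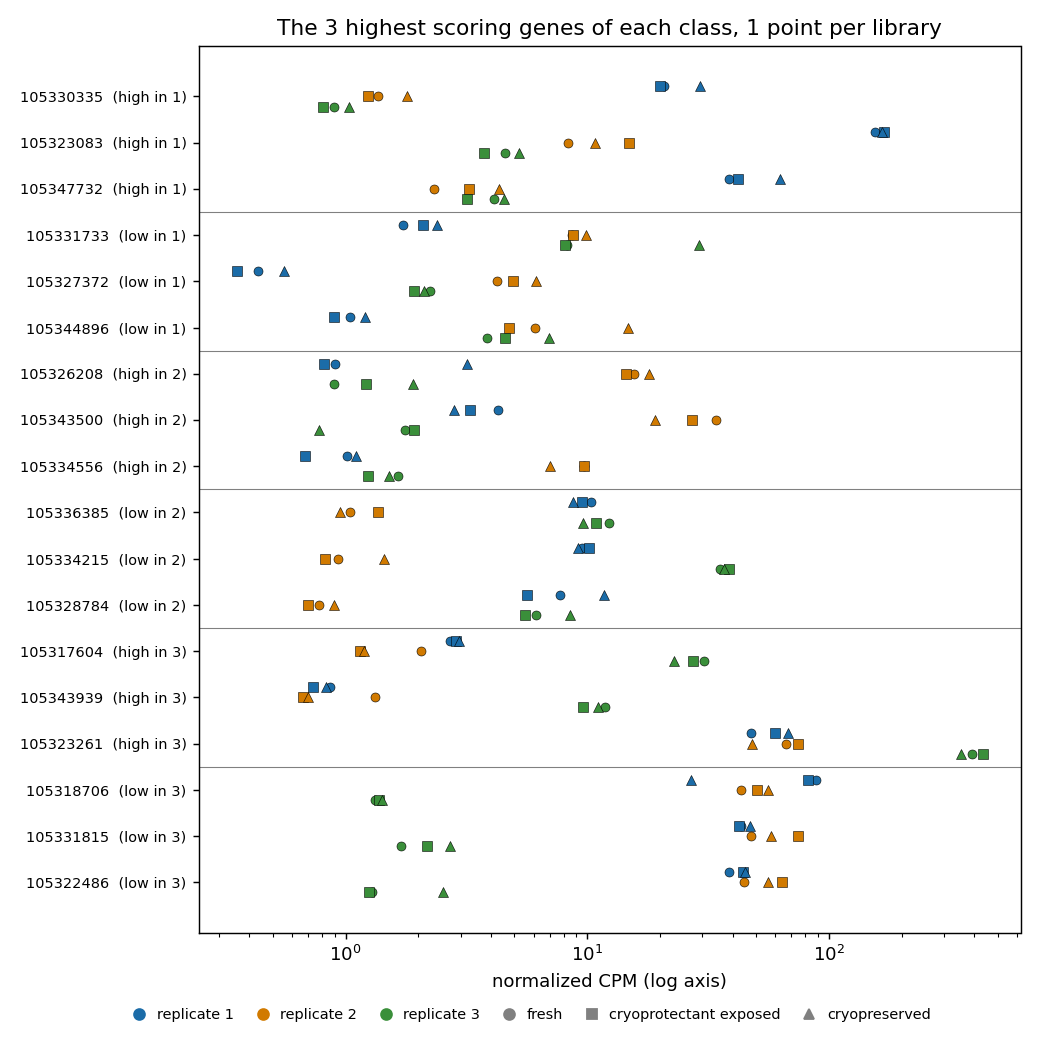
Normalized CPM (log axis) of the 3 members with the highest score in each of the 6 classes, 1 point per library, coloured by replicate number and shaped by condition. In each row the 3 points of the marked replicate lie apart from the other 6, and gene 105334215 shows 3 separate levels.

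Such 3 separate levels, with no overlap between any pools, occurred in 85 of the 200 members. The same was not counted over all genes, so neither this count nor those by class below can be called high or low. Gene 105334215 had the widest second gap, 1.8 log2 units. Gene 105338284, low in replicate 3, came next with 9.50, 8.98 and 11.2 CPM in fresh, cryoprotectant exposed and cryopreserved larvae of replicate 3, 60.1, 90.7 and 80.0 CPM in replicate 2 and 297, 292 and 457 CPM in replicate 1. The rarer gene 109620592 had the reverse order of the unmarked pools, with 0.293, 0.392 and 0.731 CPM in replicate 3, 3.18, 3.95 and 3.46 CPM in replicate 1 and 11.6, 21.97 and 13.5 CPM in replicate 2. Within the class low in replicate 3, 54 of 121 members had 3 separate levels. Replicate 2 was above replicate 1 in 33 of these and below it in 21, so that neither of the unmarked pools was always the highest.

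The members spanned a wide range of abundance. The most abundant was gene 105318531, low in replicate 2, with 782, 851 and 839 CPM there in fresh, cryoprotectant exposed and cryopreserved larvae. It had 4373, 5267 and 2390.5 CPM in replicate 1 and 2463, 2546 and 3121 CPM in replicate 3. This single gene supplied most of the summed level of its class in every library. At the other end, gene 105329321, high in replicate 2, had 3.96, 3.21 and 4.48 CPM there and between 0.294 and 1.06 CPM in the other pools. All members together took between 0.710% and 0.766% of the counts of the replicate 3 libraries, and between 1.54% and 2.00% of the counts of the other 6.

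The end of the set was not a natural break. Just inside it, gene 105340608 had 49.5, 42.8 and 48.8 CPM in replicate 3 and between 135 and 224 CPM elsewhere, and gene 105323715 had 3.96, 3.24 and 3.69 CPM in replicate 2 and between 0.490 and 1.15 CPM elsewhere. Just outside it, gene 105332176 had 1.39, 1.51 and 1.63 CPM in replicate 3 and between 4.54 and 9.28 CPM elsewhere, and gene 105317475 had 15.4, 17.1 and 23.0 CPM in replicate 3 and between 62.2 and 93.7 CPM elsewhere. All 4 scores rounded to 1.44. Genes beyond the set thus marked pools nearly as clearly.

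The choice by lowest and highest library left the treatments little room. For the members, a median of 96.5% of the variation of log2 CPM over the 9 libraries lay between replicate numbers, and 1.77% between conditions. For all 18225 genes the medians were 43.8% and 27.5%. The share between replicate numbers was above 90% in 190 members and above 95% in 143, and its lowest value was 82.8%. These shares describe the choice, which used the same values.

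The pool difference had the same sign in all 3 conditions in all 200 members, as the choice requires. Its size, the level of the marked pool minus the mean of the other pools within a condition, had a median of 2.64 log2 units in fresh, 2.71 in cryoprotectant exposed and 2.53 in cryopreserved larvae. Within a member it varied over the conditions with a median SD of 0.26. In 129 members the difference was smaller in cryopreserved than in fresh larvae, whereas it was smaller in cryoprotectant exposed than in fresh larvae in 83. The library of the marked pool that lay nearest to the other pools was the cryopreserved library in 108 members, and in 86 of these it was the cryopreserved library of replicate 3. That library was also about as shallow as the other cryopreserved libraries while the other libraries of replicate 3 were the deepest of all. The part of depth in this was not tested. The same was not counted over all genes, so 129, 83, 108 and 86 cannot be called high or low.

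**Figure D3:**
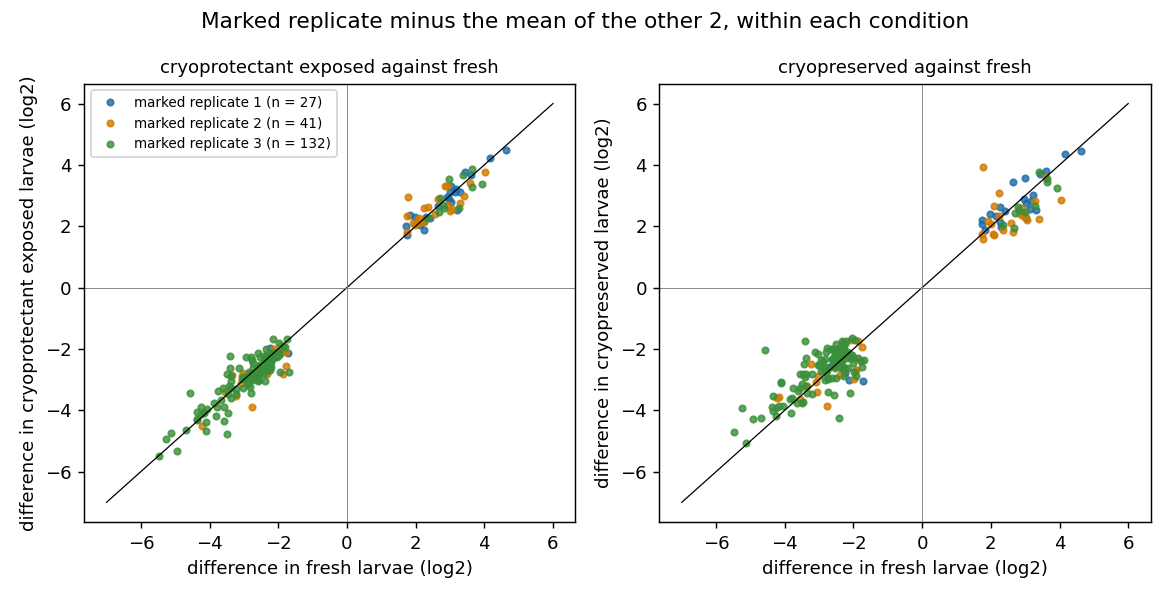
Difference between the marked replicate and the mean of the other replicates (log2) in cryoprotectant exposed (left) and cryopreserved larvae (right) against the same difference in fresh larvae, 1 point per member, coloured by marked replicate, with the line of equal differences. Every point keeps its sign, with medians of the absolute difference of 2.64 in fresh, 2.71 in cryoprotectant exposed and 2.53 in cryopreserved larvae, and the points scatter more on the right.

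Leaving a condition out of the ranking gives a gap that the ranking did not use. The libraries left out still entered the normalization, and each gene still needed 10 counts in them. When the 200 genes with the largest gap were chosen from the other 6 libraries, with normalization and filter kept, all 200 chosen without fresh larvae and all 200 chosen without cryoprotectant exposed larvae lay apart on the same side in the libraries left out. Of the 200 chosen without cryopreserved larvae, 196 did so. Among all genes with a gap above 0 in the libraries used, the shares were 89.1%, 90.2% and 61.8%. The sets shared 171, 171 and 137 genes with the 200 members. The same larval pools were sampled in every condition, so this repeats the measurement on the same parents and does not extend it to other pools.

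The treatment comparisons address the question of the study, which RNA levels change on exposure to cryoprotectants and on freezing and thawing. A large treatment change lowers the score, so members are limited in these comparisons by their choice. With edgeR's quasi-likelihood test, condition as the only factor and both thresholds (adjusted p under 0.05 and absolute log2 fold change over 1.5), 0 of 200 members were DEGs in cryoprotectant exposed against fresh larvae, where 0% of all 23052 genes tested were. None was a DEG in cryopreserved against fresh larvae, where 507 genes (2.2%) were, or in cryopreserved against cryoprotectant exposed larvae, where 693 genes (3.01%) were. At an unadjusted p under 0.05 the count of members was 0 in each of the 3 comparisons, beside 65 (0.282%), 4335 (18.8%) and 4898 (21.2%) of all genes. DESeq2 and limma-voom with condition only also called 0 members in each comparison. In cryoprotectant exposed against fresh larvae they called just 2 and 0 of all genes. In cryopreserved against fresh larvae they called 714 (3.1%) and 474 (2.06%) of all genes. Against cryoprotectant exposed larvae they called 891 (3.87%) and 674 (2.92%). In this fit the pool differences that chose the members count as spread between replicates.

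When the replicate number entered the fit as a block, so that pool differences left the spread, still 0 members passed both thresholds in any comparison. The shares of all genes were 0%, 3.98% and 4.85% for cryoprotectant exposed against fresh, cryopreserved against fresh and cryopreserved against cryoprotectant exposed larvae. Without a demand on the fold change, 36 members (18%) passed an adjusted p of 0.05 in cryopreserved against fresh larvae, beside 21.6% of all genes. Of these members 28 were higher and 8 lower, where 10.8% of all genes were higher and 10.7% lower. Against cryoprotectant exposed larvae, 32 members (16%) passed, beside 25.4% of all genes. Of these members 21 were higher and 11 lower, where 12.8% of all genes were higher and 12.6% lower. In cryoprotectant exposed against fresh larvae 0 passed, and 16 members (8%) had an unadjusted p under 0.05, beside 517 of all genes (2.24%). The 23052 genes tested passed a looser filter than the members, which needed 10 counts in the shallow cryopreserved libraries too. How far that minimum set the directions of the members was not tested. The directions also depend on the scaling. A fit with the block and scaling by library size only was added after the values were seen. In it 25 members (12.5%) passed in cryopreserved against fresh larvae, beside 26.6% of all genes. Of these members 7 were higher and 18 lower, where 1531 of all genes were higher and 4604 lower. Against cryoprotectant exposed larvae 30 members (15%) then passed, beside 26.6% of all genes. Of these members 14 were higher and 16 lower, where 1968 of all genes were higher and 4155 lower. The comparisons with cryopreserved larvae use the same cryopreserved libraries.

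On the TMM scale, the members that passed with the block in cryopreserved against fresh larvae came from all classes. In the class low in replicate 3, 16 were higher and 4 lower. Among members high in replicate 1, 6 were higher and 0 lower, while among those high in replicate 2, 1 was higher and 3 were lower. The changes were moderate, between 0.37 and 1.2 log2 units in size.

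The members with the largest changes of those 36 were picked after their values were seen. Gene 105339363, low in replicate 2, had 6.31, 0.427 and 12.1 CPM in fresh and 12.1, 1.39 and 24.2 CPM in cryopreserved larvae of replicates 1, 2 and 3. It rose in each pool while the order of the pools stayed as it was, with a log2 fold change of 1.08 (SE 0.18, edgeR adjusted p = 0.00459 with the block and 0.797 without). Gene 105330714, low in replicate 3, went from 2.35, 1.90 and 0.391 CPM to 4.89, 4.83 and 0.602 CPM (log2 fold change 1.08, SE 0.22, edgeR adjusted p = 0.0099 with the block and 0.618 without). For gene 105323533, low in replicate 2, the levels went from 11.4, 0.660 and 6.12 CPM to 18.1, 1.25 and 14.1 CPM, with a log2 fold change of 0.93 (SE 0.15, edgeR adjusted p = 0.00413 with the block and 0.799 without). All 3 were higher in cryopreserved larvae of every pool. In the marked pools these levels rest on few counts. There 3 counts stood for 0.116 CPM in fresh and 0.149 CPM in cryopreserved larvae of replicate 2. In replicate 3 they stood for 0.0586 and 0.129 CPM.

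The largest falls were of the same order. Gene 105347674, high in replicate 3, had 7.14, 4.23 and 69.8 CPM in fresh and 4.99, 1.1 and 26.3 CPM in cryopreserved larvae of replicates 1, 2 and 3 (log2 fold change -1.2, SE 0.23, edgeR adjusted p = 0.00857 with the block and 0.721 without). Gene 105343287, high in replicate 2, went from 43.0, 176 and 31.6 CPM to 18.7, 131 and 12.4 CPM (log2 fold change -0.96, SE 0.21, edgeR adjusted p = 0.0133 with the block and 0.852 without). In both, the marked pool stayed the highest after thawing. Gene 105322501, low in replicate 3, went from 13.4, 11.6 and 0.664 CPM to 6.74, 5.23 and 0.645 CPM (log2 fold change -0.92, SE 0.26, edgeR adjusted p = 0.0374 with the block and 0.785 without). Its levels were lower in replicates 1 and 2, while the low level of replicate 3 barely moved. Leaving out single libraries, with the block, took the adjusted p of edgeR above the threshold for 4 of the 6 genes. It reached 0.0641 for gene 105330714, 0.0651 for gene 105347674, 0.0657 for gene 105343287 and 0.154 for gene 105322501, and its highest value was 0.0412 for gene 105339363 and 0.0454 for gene 105323533.

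Without any threshold, the median of cryopreserved minus fresh larvae over the 200 members was 0.20, 0.23 and 0.28 log2 units within replicates 1, 2 and 3, against -0.03, -0.02 and 0.01 over all 18225 genes. In the 3 pools, 139, 142 and 140 members (69.5%, 71% and 70%) were higher in cryopreserved larvae, beside 48.1%, 48.0% and 50.6% of all genes. In 99 members (49.5%) cryopreserved larvae were higher in every pool, beside 26.7% of all genes, and in 26 members (13%) they were lower in every pool, beside 28.4% of all genes. Within the class low in replicate 3 the medians were 0.20, 0.31 and 0.37. These are counts and medians without a test, and the scale bears on them. In the fit with condition only and scaling by library size only, the median of cryopreserved against fresh larvae was -0.20 over all genes. That of the members was 0.09. The filter bears on them too, since 10 counts stand for a higher CPM in the shallow cryopreserved libraries. A rare member could thus pass more easily with a high cryopreserved level. Members under 20 counts numbered 35 in cryopreserved replicate 3 and 8 in fresh replicate 3. What the filter contributed was not tested.

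**Figure D4:**
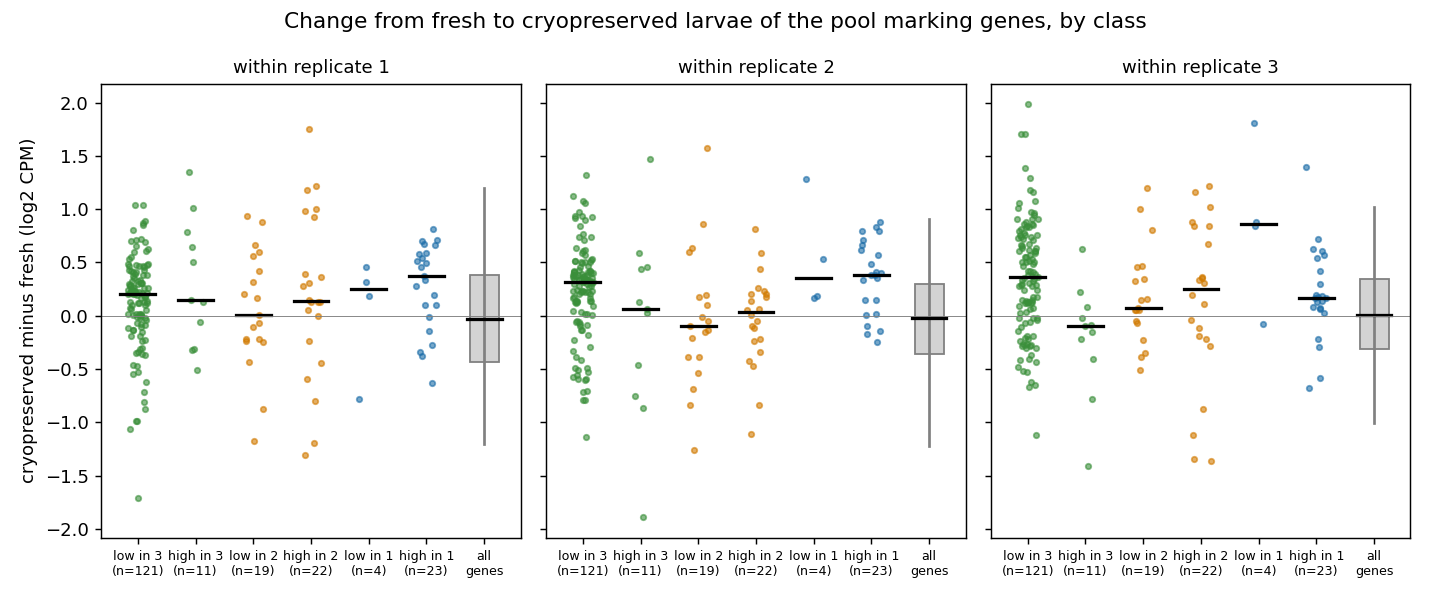
Cryopreserved minus fresh larvae (log2 CPM) within each replicate for the 200 members by class, 1 point per gene with the class median as a bar, beside all 18225 genes (box of the middle 50%, whiskers from the 5th to the 95th percentile, bar at the median). The medians of the members low in replicate 3 are 0.20, 0.31 and 0.37, and those of all genes -0.03, -0.02 and 0.01.

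The medians were smaller in each pool after cryoprotectant exposure alone. Cryoprotectant exposed minus fresh larvae had a median of 0.02, 0.17 and 0.05 log2 units over the members in replicates 1, 2 and 3. Over all genes the medians were 0.0002, 0.005 and -0.005. The value of the members in replicate 2 came mostly from the class low in replicate 3. There 90 of 121 members (74.4%) were higher, beside 51.1% of all genes in that pool. The median of the class was 0.28 there, against 0.02 and 0.08 in the other pools. Cryopreserved minus cryoprotectant exposed larvae accordingly had medians of 0.15, -0.05 and 0.26 over the members. Over all 18225 genes they were -0.02, -0.03 and 0.02, so the value of replicate 2 was close to that of genes in general.

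Some members had neighbouring gene numbers. Of the 200, 20 (10%) had another member within 2 numbers, beside 2.12% of the other 18025 genes. They formed 10 pairs of consecutive numbers, and in 9 pairs both genes were low in replicate 3. Genes 105324859 and 105324860 were such a pair, with scores of 3.29 and 3.28. In replicate 3, gene 105324859 had 2.76, 2.84 and 2.71 CPM and gene 105324860 had 1.02, 1.04 and 1.03 CPM in fresh, cryoprotectant exposed and cryopreserved larvae, while the lowest level elsewhere was 28.3 CPM for the former and 10.6 CPM for the latter. The exception was the pair of gene 105323083, high in replicate 1, and gene 105323082, high in replicate 2. Where these genes lie, and whether they share sequence, was not examined here.

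Estimated counts hold fractions where reads were divided between transcripts, so members were compared with all genes in this respect. Of the values of the members, 40.9% differed from a whole number by more than 0.01, against 42.3% of the values of all genes. Fractions in all 9 libraries occurred in 34 members (17%), among them gene 105322486, against 17.7% of all genes. Members without any fraction numbered 56 (28%), among them gene 105330335, against 21.1%. Levels that hold a fraction depend on how reads were divided and are less certain. In the 34 genes this applies to all 9 libraries, and in members of neither group to some of them.

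The minimum of 10 counts kept out genes that were all but silent in a pool. In 51 genes outside the set, the 3 libraries of a pool had at most 3 counts each while the other 6 had at least 10 each. Replicate 2 was the silent pool in 33 of them, replicate 1 in 10 and replicate 3 in 8. The opposite, at least 10 counts in the 3 libraries of a pool and at most 3 in the other 6, held for 69 genes, with 34 in replicate 3, 19 in replicate 1 and 16 in replicate 2. The order of the pools among these genes was thus not that of the members, where low levels in replicate 3 prevailed. Counts are not adjusted for depth here, and with a common floor of 0.149 CPM the numbers became 39, 15 and 17 for genes silent in replicates 2, 1 and 3 and 46, 33 and 24 for genes counted only in replicates 3, 1 and 2.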

How the data were processed

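Per the methods of the study, clean reads were aligned to the Crassostrea gigas genome and summed to genes with Salmon 1.1. The authors deposited estimated counts per gene, without normalization, and columns were assigned to libraries by the labels, with 0 columns unused. Estimates were rounded and normalized by TMM in edgeR 4.0.16 (R 4.3.3). The set and the genes named (the 3 highest scores of each class, the highest and lowest levels, the 3 widest second gaps, and the 2 genes on either side of the end of the set) were chosen with earlier results of these data known. A further part of that rule, for DEGs with the block, named no gene. Treatments were compared over all 9 libraries by the quasi-likelihood test of edgeR on the 23052 genes that reached 5 counts in 3 or more libraries, with a prior count of 0.125 and Benjamini-Hochberg adjustment. Standard errors are approximate (absolute log2 fold change over the square root of F). Scripts were tested on simulated data. Alternatives were the replicate block, DESeq2 1.42.0, limma-voom (limma 3.58.1), other normalizations, filters and prior counts, 6 libraries per comparison, and each library left out.

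Each pool was exposed to all 3 conditions per the study's methods, and after removal of the condition means each of the 9 pairs of libraries with equal numbers was correlated (r from 0.513 to 0.863), so the numbers were taken to mark pools and the block is given beside the results. Replicates of a condition were no repeat deposits (lowest chi-square over its degrees of freedom 77.2), so each library was counted once. With condition only, p-values measure the spread between these 3 pools. With the block, pool differences are removed, and p-values rest on how far the treatment change varied from pool to pool.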

Additional observations from a re-analysis of the deposited data

How the results depend on the processing

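All 200 members kept a gap above 0 under every alternative in which they passed the filter, but which genes ranked among the first 200 varied. Leaving out libraries cannot narrow a gap, apart from the renewed scaling, and another filter leaves the values unchanged. For those alternatives the kept gap was thus fixed in advance. The class stayed the same in 199 members without cryoprotectant exposed replicate 2, and in 198 without cryopreserved replicate 1 or without the cryopreserved libraries. The number shared with the 200 members was 199 with RLE normalization, 173 with library size only, 198 with a prior count of 0.5, 188 with a prior count of 8, 88 with at least 50 counts in every library (where only 88 members were eligible), 40 with no filter and 124 with normalization and filter redone without the cryopreserved libraries. Leaving out each library in turn gave 142 (without cryopreserved replicate 3) to 190 shared genes, and 102 (without cryopreserved replicate 1) to 147 (without cryopreserved replicate 3) genes low in replicate 3. That class had 47 genes with no filter.

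With the replicate block, members passing both thresholds in the 3 comparisons numbered 0, as without it. The exception was 1 member in cryopreserved against cryoprotectant exposed larvae without cryopreserved replicate 1 (range 0 to 1 over the libraries left out). Members with an adjusted p under 0.05 at any fold with the block numbered 0, 36 and 32 in the 3 comparisons. With the block and only the 6 libraries compared they numbered 8, 10 and 14, beside 2.17%, 11.1% and 13.5% of all genes (members 4%, 5% and 7%). Leaving out each library in turn gave 6 (without fresh replicate 2, all genes 10.6%) to 35 in cryopreserved against fresh larvae. The 35 came without cryopreserved replicate 1 (all genes 24.6%) and without cryopreserved replicate 2 (all genes 21.3%). Leaving out fresh replicate 1 gave 9 (all genes 11%), fresh replicate 3 gave 8 (9.55%) and cryoprotectant exposed replicate 1 gave 22 (18.2%). In cryopreserved against cryoprotectant exposed larvae the range was 6 (without cryoprotectant exposed replicate 1, all genes 13.4%) to 33 (without cryopreserved replicate 3, all genes 23%). Without cryoprotectant exposed replicates 2 and 3 the counts were 15 and 21 (all genes 14.7% and 14.8%). Without fresh replicate 3 the count was 21 (all genes 19.2%). DESeq2 with the block gave 51 (25.5%) in cryopreserved against fresh larvae, beside 23.8% of all genes, so that members were above the share of all genes there and below it with edgeR. The median log2 fold change of the members with the block, 0.30 in cryopreserved against fresh larvae, was 0.13 with library size only, a setting added after the data were seen. The cause of these shifts was not tested. Low counts in the shallow cryopreserved libraries limit the precision for members.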
